A study of Bos taurus with 18 samples.

Results

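Circular RNAs (circRNAs) whose host genes encode enzymes and adaptors of the ubiquitin system were examined in MAC-T cells, a line of bovine mammary epithelial cells, left untreated or exposed to killed bacteria. Members were all circRNAs whose annotated host gene symbol begins with USP, UBE, UBR, HERC, HECTD, HECW, NEDD4, TRIM, RNF, FBXO, FBXW, FBXL, CUL, KLHL or BIRC, with RNF111 left out. The rule used names only and gave 123 of 3914 circRNAs (3.14%), from 74 of 2220 host genes, and 82 of 5966 m6A peak calls. All 74 symbols were found in the bovine RefSeq gene table.

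Cells were seeded at 200000 per well, grown for 12 h and then kept without bacteria (the control group) or given *S. aureus* or *E. coli*, both killed by heat, at 10 bacteria per cell for another 24 h. Each group had 3 wells of this 1 line. From each well came an input library, in which circRNAs were counted, and a library of RNA pulled down (IP) with an antibody to N6-methyladenosine (m6A), a methyl mark on adenosine. The sources call the wells replicates and do not say whether they came from separate cultures, so p-values measure only the spread between wells, which may be technical. The tables hold circles and no linear transcripts, so the cell line was not checked against epithelial marker genes.

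Ubiquitin is a small protein that is attached to other proteins through a relay of an activating enzyme (E1), a conjugating enzyme (E2) and a ligase (E3), and that deubiquitinases take off again. HECT ligases carry ubiquitin on their own cysteine before they pass it on, whereas RING ligases bring the loaded E2 to the target. Cullin ligases are assembled from a cullin scaffold and exchangeable adaptors, F-box proteins for CUL1 and kelch proteins (KLHL) for CUL3. In epithelial cells exposed to bacteria, ubiquitin chains are part of the signalling from pattern receptors to NF-kB. A circRNA forms when the end of an exon is joined back to the start of the same or an upstream exon, and a read across that join (a back-splice junction read) counts the circle rather than the linear transcript of the host gene.

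The number of junction reads and of peak calls differed between the groups and bears on every value that follows. Input libraries of control wells held 1529 to 2057 junction reads, those of *S. aureus* wells 361 to 402 and those of *E. coli* wells 909 to 962. The IP libraries held 1138 to 1358, 27 to 29 and 645 to 857 peak calls in the same order. Fewer member circles detected in the *S. aureus* group therefore cannot be told apart from fewer junction reads of all circles. In such bulk samples fewer expressing cells and less RNA per cell cannot be told apart either. Junction reads count circles and are not the sequencing depth of a library.

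Ubiquitin system circles took a few percent of all junction reads in every well. The 3 control wells held 54, 47 and 82 of their reads, the 3 *S. aureus* wells 12, 6 and 9, and the 3 *E. coli* wells 23, 31 and 24. As a share of all junction reads this was 3.42% ± 0.632 (SD, n = 3) for control, 2.34% ± 0.735 for *S. aureus* and 2.79% ± 0.382 for *E. coli*. The wells of the 3 groups overlapped, from 2.74% to 3.99% in control, from 1.66% to 3.12% with *S. aureus* and from 2.5% to 3.22% with *E. coli*. The 95% Wilson interval of the lowest well, *S. aureus* replicate 2, ran from 0.764% to 3.58%, and that of the highest, control replicate 3, from 3.22% to 4.92%. These intervals cover only the counting error of independent reads. No molecular identifiers are described, so reads may be copies of 1 molecule and the intervals may be too narrow.

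**Figure D1:**
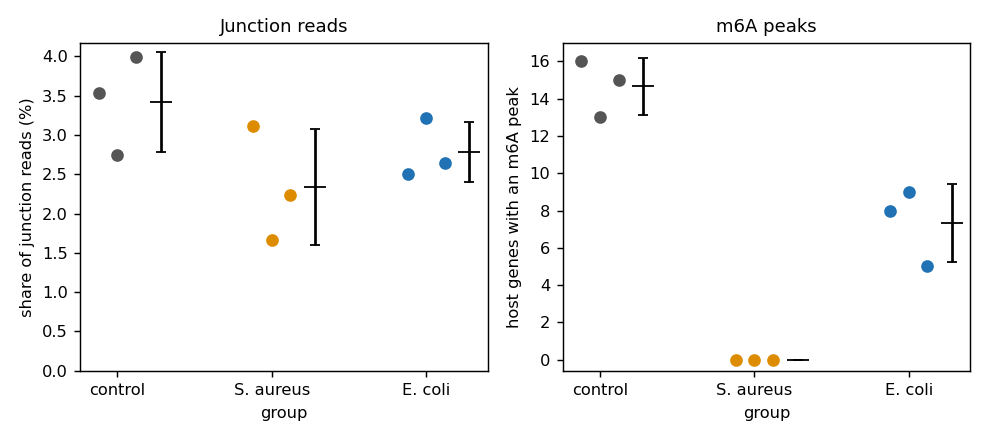
Share of junction reads on ubiquitin system circRNAs (left, percent of all junction reads of the well) and number of their host genes with an m6A peak (right), by group. Points are wells, bars are the mean and SD over 3 wells. The shares overlap between the groups. The number of host genes with a peak, which is not scaled, is 13 to 16 in control wells, 0 in each *S. aureus* well and 5 to 9 in *E. coli* wells. Over all circRNAs these wells have 1138 to 1358, 27 to 29 and 645 to 857 peak calls in the same order. Member calls are 1.47% to 1.54% of the calls in control wells, 0% with *S. aureus* and 1.09% to 1.38% with *E. coli*.

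Most of these circles were rare, as were circles of the table at large. Of the 123 member circRNAs, 106 (86.2%) were read in 1 well only, against 85.9% of all circRNAs, and 53 (43.1%) were seen as a single read, against 43.8%. Exonic circles made up 94 of the 123 (76.4%, against 68.0% of all), followed by 14 sense overlapping, 8 antisense and 7 intronic circles. The median predicted length of the member circles was 598 bases (568 over all circRNAs). At the level of host genes, 57 of 74 had a read in a control well, 16 in an *S. aureus* well and 32 in an *E. coli* well, and 6 had one in all 3 groups. Of these genes, 33 were read in control wells only, 4 in *S. aureus* wells only and 12 in *E. coli* wells only. At the level of circRNAs, 53.7% of members were read in control wells only (51.1% of all circRNAs), 9.76% in *S. aureus* wells only (12.3%) and 24.4% in *E. coli* wells only (26.7%), shares near those of the whole table.

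By role, the deubiquitinases of the USP family, with most host genes, supplied 82 of the 288 member reads. The 18 USP host genes had 56 junction reads over the control wells, 11 over the *S. aureus* wells and 15 over the *E. coli* wells. The 8 HECT genes of the HERC, HECW and NEDD4 families had 28, 3 and 15 reads, and the 11 UBE genes had 28, 4 and 7. This last prefix mixes E2 enzymes with the HECT ligases UBE3A and UBE3C and the U-box proteins UBE4A and UBE4B. The 15 F-box genes had 26, 5 and 12 reads, the 11 TRIM and RNF genes 11, 3 and 12, and the 5 kelch genes 11, 1 and 4. CUL3 was the only cullin with a circle, with 1, 0 and 9 reads, and BIRC6 the only BIRC gene, with 17, 0 and 3. The 4 UBR genes, named for ligases that read the first residue of a protein, had 5, 0 and 1.

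The 15 host genes with most reads held 177 of the 288 member reads (61.5%). For most of them the reads came largely from 1 or 2 wells, and 46 of the 74 host genes had reads in a single well.

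**Figure D2:**
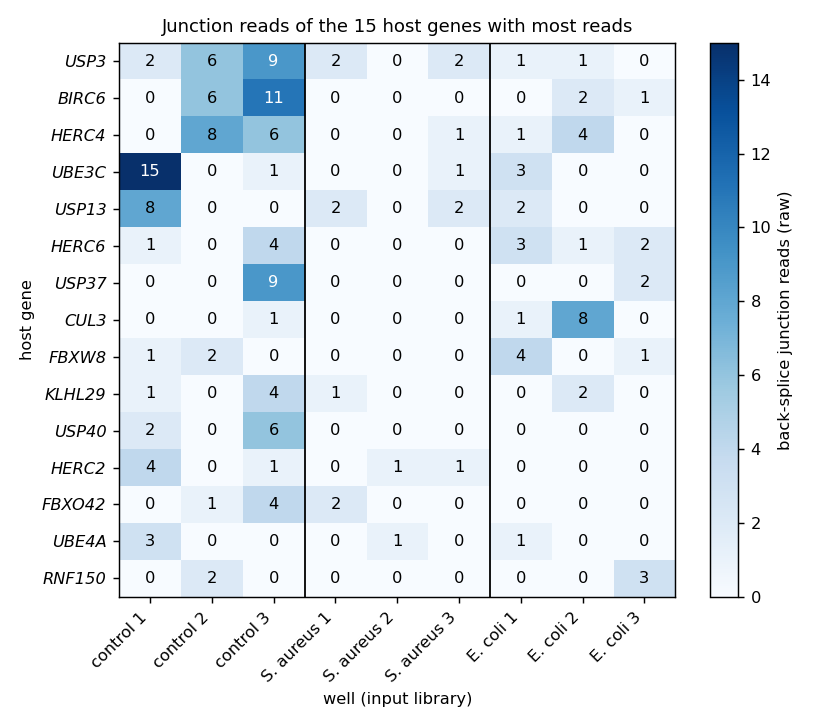
Raw back-splice junction reads per well for the 15 ubiquitin system host genes with most reads, summed over the circRNAs of each gene. Columns are the 9 input libraries, rows the genes, and the color scale is the read count. USP3 is the only gene read in all 3 control wells and HERC6 the only one read in all 3 *E. coli* wells.

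USP3, a deubiquitinase of histone H2A, hosted the member circle with most reads. This exonic circle of 193 bases lies on chromosome 10 at chr10:46480909-46485029 (bosTau9, minus strand), and 10 circRNAs of the whole table had more reads. It had 2, 6 and 9 junction reads in the control wells, 2, 0 and 2 in the *S. aureus* wells and 1, 1 and 0 in the *E. coli* wells. The control and *S. aureus* wells touched at 2 reads, while each *E. coli* well had fewer reads than each control well. These counts are not scaled, and control wells held 1529 to 2057 junction reads against 909 to 962 in *E. coli* wells. The share of all circRNAs whose wells lie apart in this way was not computed. As a share of the summed junction reads of the group, USP3 stood at 0.321% in control, 0.349% with *S. aureus* and 0.0717% with *E. coli*.

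A circRNA entered the test if 3 or more libraries had 2 or more reads of it, and of the 79 that did, the USP3 circle was the only member. It did not pass edgeR's quasi-likelihood test with Benjamini-Hochberg adjustment in any comparison. Against control, its log2 fold change was -2.44 with *E. coli* (SE 1.31, adjusted p = 0.494 in edgeR) and -1.19 with *S. aureus* (SE 1.24, adjusted p = 0.564 in edgeR). Without TMM, the trimmed-mean scaling factor, the values were -1.94 and 0.15, so the sign of the *S. aureus* value rests on the scaling. Between *E. coli* and *S. aureus* the log2 fold change was -1.25 (SE 1.41, adjusted p = 0.681 in edgeR).

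TMM moved all *S. aureus* values downwards. The median log2 fold change over the 79 circRNAs was -1.88 for *S. aureus* against control with TMM and -0.74 without, and over the 205 host genes it was -1.93 and -0.41. For *E. coli* against control the host gene medians were -0.54 and 0.01, and for *E. coli* against *S. aureus* 1.18 and 0.32. In the *S. aureus* libraries 68.8% to 75.6% of the tested host genes had no read. No change was read from the TMM fit alone. With the clean reads of the input libraries as library size, the *S. aureus* against control medians were -2.645 over circRNAs and -2.469 over host genes. These lay below the medians without TMM, so the *S. aureus* wells held fewer junction reads per clean read than the control wells. The cause was not tested.

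At an adjusted p under 0.05, edgeR called 0 of 79 circRNAs in each of the 3 comparisons (background 0.0%), and so did DESeq2. Without adjustment, p was under 0.05 for 13, 7 and 12 circRNAs. With a change of 2-fold or more and an unadjusted p of 0.05 or less as the rule, the background was 16.5% for *S. aureus* against control, 8.86% for *E. coli* against control and 15.2% for *E. coli* against *S. aureus*, and the USP3 circle was not among the calls.

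With the reads summed per host gene, 5 ubiquitin genes were among the 205 tested: USP3, BIRC6, HERC4, HERC6 and USP13. At an adjusted p under 0.05 in edgeR the background was 0.488% for *S. aureus* against control, 0.0% for *E. coli* against control and 0.488% for *E. coli* against *S. aureus*, and none of the 5 was called. For *E. coli* against control, where the count over all genes was 0, edgeR had 16 host genes at an unadjusted p under 0.05 and DESeq2 called 0. By the rule of 2-fold and an unadjusted p of 0.05, 1 of the 5 (BIRC6) was called for *S. aureus* against control, where the background was 19.0% (1 host gene higher and 38 lower, and without TMM 5 higher and 3 lower). Without 1 well the calls over all host genes ran from 6 of 191, without *S. aureus* replicate 1, to 43 of 166, without *E. coli* replicate 2. None was called for *E. coli* against control or for *E. coli* against *S. aureus*, with backgrounds of 7.8% (1 higher and 15 lower, and without TMM 4 higher and 10 lower) and 10.7% (21 higher and 1 lower, and without TMM 5 higher and 9 lower). USP3, whose only circle was the one above, had log2 fold changes of -2.50 with *E. coli* (SE 1.52, adjusted p = 0.735 in edgeR) and -1.38 with *S. aureus* (SE 1.43, adjusted p = 0.555 in edgeR) against control in this fit.

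BIRC6 encodes a giant inhibitor of apoptosis that carries its own E2 domain, and it had more circles than any other member. Its reads numbered 0, 6 and 11 in the control wells, 0, 0 and 0 in the *S. aureus* wells and 0, 2 and 1 in the *E. coli* wells. The groups overlapped, since control replicate 1 had no BIRC6 read either. Summed over wells, the gene took 0.321% of control junction reads. This was 1.23 times the limit that 0 counts allow in the *S. aureus* group (3 reads over the group, 0.262%). The limit takes reads as independent, and the ratio leaves out the error of the control share and the spread between wells, so it is no lower bound. Without control replicate 3 the control share was 6 of 3243 reads (0.185%), under that limit, so a control share above the limit rests on this well. For *S. aureus* against control the edgeR test gave an unadjusted p of 0.0175 and an adjusted p of 0.239. Without TMM the unadjusted p was 0.0971, with DESeq2 it was 0.0715 and without *S. aureus* replicate 1 it was 0.0572, so the unadjusted call was lost in each. Without control replicate 2, control replicate 3 or *E. coli* replicate 2, BIRC6 no longer had enough reads to be tested.

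The 8 BIRC6 circles, all exonic and on the plus strand of chromosome 11, were spread over the gene. A set of 3 shared the lower boundary at position 14988282 and ran to 14999931, 15005467 and 15012504, and the other 5 shared no boundary. The most read was chr11:15062033-15070887 (1027 bases), with 8 reads, all in control replicate 3. No BIRC6 circle was read in more than 1 well, so the gene's total in control was the sum of different circles.

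HERC4, a HECT ligase with a domain like that of the nucleotide exchange factor RCC1, had circles nested on common boundaries. Its reads were 0, 8 and 6 in control, 0, 0 and 1 with *S. aureus* and 1, 4 and 0 with *E. coli*. Of its 7 circles on the minus strand of chromosome 28, 3 shared the upper boundary at position 24532463. The most read, chr28:24511718-24532463 (682 bases, exonic), had 5 and 2 reads in control replicates 2 and 3, 1 read in *S. aureus* replicate 3 and 1 in *E. coli* replicate 1. The gene's log2 fold change was -2.81 with *S. aureus* (SE 1.75, adjusted p = 0.318) and -1.02 with *E. coli* (SE 1.48, adjusted p = 0.928) against control in edgeR. Neither passed, and without TMM these were -1.44 and -0.50.

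HERC6 was the gene read in every *E. coli* well. It is the main ligase for the ubiquitin-like protein ISG15 in mice, a part played by HERC5 in humans. It had 1, 0 and 4 reads in control, none in the 3 *S. aureus* wells and 3, 1 and 2 with *E. coli*. The control and *E. coli* wells overlapped, and the log2 fold change between them was 0.59 (SE 1.49, adjusted p = 0.957 in edgeR). Both the control share (0.0943%) and the *E. coli* share (0.215%) lay under the limit that 0 reads allow in the *S. aureus* group, so no fold against that group was given, and the test of *E. coli* against *S. aureus* did not pass (adjusted p = 0.356 in edgeR). The reads came from 5 circles, of which chr6:36340829-36344567 was read in control and in *E. coli* wells. HERC3, HERC5 and HERC6 lie side by side on the minus strand of chromosome 6, where their 7 circles fell within chr6:36096170-36356325 (260156 bases), and HERC3 and HERC5 had 1 read each.

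USP13, a deubiquitinase known from the control of autophagy, depended on a single control well. It had 8, 0 and 0 reads in control, 2, 0 and 2 with *S. aureus* and 2, 0 and 0 with *E. coli*. Its log2 fold change was -0.57 with *S. aureus* (SE 1.61, adjusted p = 0.862) and -1.69 with *E. coli* (SE 1.68, adjusted p = 0.928) against control in edgeR. Without control replicate 1 the values were 3.79 and 2.75, and without TMM the *S. aureus* value was 0.97. The 5 circles of USP13 were each read in 1 well, and the pair read in *S. aureus* wells was read in no other group.

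For the other genes with most reads, too few libraries had 2 or more reads for a test. UBE3C, a HECT ligase that lengthens ubiquitin chains, had 15, 0 and 1 reads in control, 0, 0 and 1 with *S. aureus* and 3, 0 and 0 with *E. coli*. Its most read circle, chr4:118534000-118536619 (424 bases), had 14 reads in control replicate 1 and none elsewhere, the highest count of a member circle in any library. USP37, a deubiquitinase of cell cycle proteins, had 9 reads in control replicate 3 and 2 in *E. coli* replicate 3.

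CUL3, the scaffold of the kelch-based ligases, had most of its reads in 1 *E. coli* well. It had 0, 0 and 1 reads in control, none with *S. aureus*, and 1, 8 and 0 with *E. coli*. The 8 reads in *E. coli* replicate 2 belonged to 1 exonic circle, chr2:112600185-112620346 (1303 bases), that was read in no other well. FBXW8, an F-box protein that works with CUL7, had 1, 2 and 0 reads in control, none with *S. aureus* and 4, 0 and 1 with *E. coli*. Of its 4 circles, 3 shared the upper boundary at position 58123816 on chromosome 17.

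USP40 had 2, 0 and 6 reads in control and none in either bacterial group. KLHL29 had 1, 0 and 4 reads in control, 1 in *S. aureus* replicate 1 and 2 in *E. coli* replicate 2. HERC2, a giant ligase of the DNA damage response, had 4, 0 and 1 reads in control and 1 each in *S. aureus* replicates 2 and 3. FBXO42 had 0, 1 and 4 reads in control and 2 in *S. aureus* replicate 1, and its exonic circle at chr2:135815880-135830409 was among the 4 member circles read in 3 or more wells. UBE4A, a U-box ligase that extends chains, had 3, 0 and 0 reads in control and 1 each in *S. aureus* replicate 2 and *E. coli* replicate 1. RNF150 had 2 reads in control replicate 2 and 3 in *E. coli* replicate 3.

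Shared boundaries were counted over all members. Of the 21 member host genes with 2 or more circles, 10 (47.6%) had circles with a boundary in common, against 46.2% of all such host genes. A host gene with 2 or more circles was seen for 28.4% of the members and 35.8% of all host genes. By position, chromosome 6 carried 9 member host genes and chromosome 2 carried 7.

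In the *S. aureus* group, 16 member host genes were read, each with 1 to 4 reads over the 3 wells. Read in no other group were FBXL5, an F-box protein of iron sensing, USP46, RNF169 (2 reads each, each in a single well) and UBE2R2 (1 read, antisense). USP9X, a deubiquitinase encoded on the X chromosome, was read in *S. aureus* and *E. coli* wells and in no control well. Genes read only in the *E. coli* group included RNF4, a ligase that recognizes SUMO chains, with 4 reads in replicate 1, and USP4, with 4 reads in replicate 3. USP18, which removes ISG15 rather than ubiquitin, had 1 read, in *E. coli* replicate 1.

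The m6A peaks came from a comparison of each IP library with its input by the authors' peak caller. Peaks lay on 22 of the 123 member circles, from 20 host genes. A peak was called on 20 member circles (16.3%) in any control well, where the background over all circRNAs was 26.4%, and on 11 (8.94%) in any *E. coli* well, where it was 18.6%. No member circle had a peak in an *S. aureus* well, where the background was 0.843%. The 3 control wells had 20, 17 and 19 member peak calls and the 3 *E. coli* wells 9, 10 and 7. Member calls were 1.5% of all calls in control and 1.21% in *E. coli*. If calls were independent, 0 of the 84 *S. aureus* calls would allow a share of up to 3.57%. The 84 calls lay on only 33 circRNAs, so the limit is looser than that. A lower share in that group was not detectable with so few calls.

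Most peaks lay on circles without a junction read in the same well. Of 47 pairs of a member circle and a control well with a peak, 10 (21.3%) also had a junction read in that well (23.3% over all circles), and of 22 such *E. coli* pairs 3 had one (13.6%, against 13.1%). Of the 15 host genes with most reads, 4 had a peak (FBXW8, HERC4, KLHL29 and RNF150), against 20 of all 74 member host genes. The sources used here do not say whether a peak counts all IP reads over its span or only those across the junction. Whether linear RNA of the host gene contributed was not tested.

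Peaks of the 9 IP libraries were merged where they overlapped by 1 base or more on 1 strand, which gave 27 merged peaks on member circles. A control peak was part of 25 of them and an *E. coli* peak of 13, and 11 had both. In all 3 control wells 13 were called (916 over all circRNAs), in all 3 *E. coli* wells 6 (454), and in all 6 of these wells 5 (433). Median fold enrichment over input of the member calls was 20.5 in control (21.8 over all calls) and 30.9 in *E. coli* (33.2 over all calls). The false discovery rate given by the caller was 14.21% to 100% for the member calls in control, and 1.36% to 8.56% in *E. coli*. At or under 5% were 0 of 56 member calls in control, as were 0 of all 3727, and 20 of 26 (76.9%) in *E. coli*, against 62.4% of all 2155.

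USP1, which removes ubiquitin from FANCD2 and PCNA, carried the strongest control peak on average. Its fold enrichment was 49.46, 47.86 and 29.87 in the control wells (42.4 ± 10.9, SD, n = 3) and 40.14, 32.98 and 59.04 in the *E. coli* wells (44.1 ± 13.5). The wells of the groups overlapped, and the exact two-sided permutation test gave p = 0.9, where 3 wells against 3 cannot go below 0.1. The merged peak, chr3:83121950-83122635, lay inside an exonic circle of 1325 bases.

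TRIM29, a TRIM protein without the RING finger that gives most of its family ligase activity, carried a pair of peaks on 1 circle. At chr15:30701272-30703095, on a sense overlapping circle, the fold enrichment was 26.4, 35.0 and 20.98 in control and 61.07, 36.43 and 45.16 in *E. coli*. All *E. coli* wells were above all control wells (exact permutation test, p = 0.1, the smallest possible), and the ratio of geometric means was 1.73. This test was run only for the 5 member peaks called in all 6 wells. As no p can fall under 0.1, no adjusted p can either, so none passes. At the other end of the same circle, chr15:30710679-30711328, the values were 19.93, 14.46 and 12.29 in control and 15, 17.77 and 18.68 in *E. coli*, and the wells overlapped (exact permutation test, p = 0.6).

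USP34, a deubiquitinase of the Wnt pathway, was the other peak without overlap. Its values at chr11:59995227-59995840 were 18.8, 20.66 and 18.07 in control and 30.31, 25.78 and 34.04 in *E. coli*, a ratio of 1.56 (exact permutation test, p = 0.1). UBE3A, the HECT ligase known as E6AP, had 29.31, 20.15 and 18.42 in control and 24.73, 31.28 and 20.97 in *E. coli* at chr21:2326212-2327458, with overlap (exact permutation test, p = 0.5).

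Of the 5 peaks called in all 6 wells, 2 had every *E. coli* value above every control value, where the background over 433 such peaks was 9.47%, and 0 had every *E. coli* value below (background 1.62%). The median ratio of *E. coli* to control was 1.14 for the 5 member peaks and 1.14 for all 433. Enrichment levels differed between libraries as a whole, with library medians from 17.1 to 24.6 in control and from 31.4 to 36.9 in *E. coli*. After division by the library median, neither of the 2 peaks stayed apart (ratios of 1.13 for TRIM29 and 1.01 for USP34). USP1 and the weaker TRIM29 peak then had every *E. coli* value below every control value, with ratios of 0.673 and 0.729. The background of 1.62% is for undivided values, and none was computed after division, so these 2 cannot be set against it. For USP1, UBE3A (0.743) and the weaker TRIM29 peak, 3 of the 5, the direction thus depended on the scale, whereas the other 2 ratios stayed above 1.

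**Figure D3:**
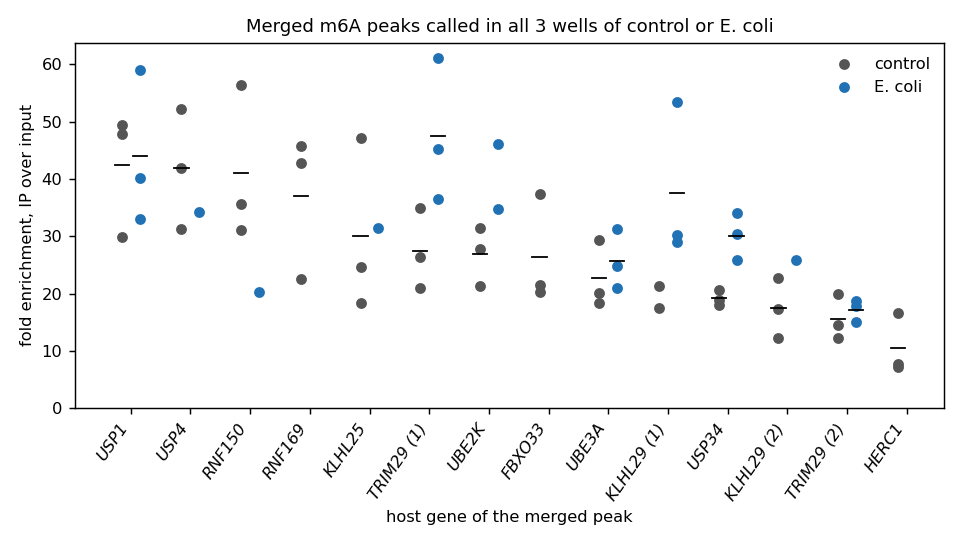
Fold enrichment (IP over input, as given by the peak caller) of the 14 merged peaks on ubiquitin system circRNAs called in all 3 wells of the control or *E. coli* group, in order of the mean in control. Points are wells with a call, short lines are the mean where all 3 wells had one, and wells without a call have no point. USP1, TRIM29, UBE3A and USP34 have 3 points in both groups, whereas RNF169, FBXO33 and HERC1 have none in *E. coli*.

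Other peaks were called in all control wells and in some *E. coli* wells. USP4, whose circle had junction reads in *E. coli* replicate 3 and in no other well, had control values of 41.98, 52.27 and 31.29 and a call of 34.15 in *E. coli* replicate 2. RNF150 had 35.54, 56.36 and 31.13 in control and 20.3 in *E. coli* replicate 2. KLHL25, an adaptor of CUL3, had a peak over its whole circle of 1798 bases, with 47.1, 24.56 and 18.28 in control and 31.51 in *E. coli* replicate 1.

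UBE2K, an E2 that builds chains linked through lysine 48, had its stronger peak on an antisense circle of 233 bases that was itself seen as 1 read. The fold enrichment there was 31.35, 27.85 and 21.34 in control and 46.15 and 34.76 in *E. coli* replicates 1 and 2. KLHL29 had a peak at each end of 1 exonic circle. That at chr11:75311665-75312177 was called in all control wells (22.69, 17.33 and 12.29) and in *E. coli* replicate 3 (25.83), and that at chr11:75313879-75314020 in all *E. coli* wells (28.96, 30.25 and 53.4) and in control replicates 1 and 2 (21.25 and 17.39).

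Of the 13 peaks called in all control wells, 3 were called in no *E. coli* well, where the background was 19.5%. They lay on RNF169, FBXO33 and HERC1. RNF169, a ligase-like protein that binds ubiquitin at DNA breaks, had 45.67, 42.83 and 22.51. FBXO33, an F-box protein, had 37.31, 20.34 and 21.41. HERC1, a giant HECT ligase, had 7.12, 16.63 and 7.75, the lowest mean of the 13. Levels under the calling threshold are unknown, and a missing call is not a level of 0.

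All 13 control peaks were absent from every *S. aureus* well (background 98.0%), as were all 6 *E. coli* peaks (background 96.7%). None of the 6 peaks called in all *E. coli* wells was absent from every control well (background 0.661%). The 2 merged peaks called only in *E. coli* wells were each seen in 1 well, NEDD4L in replicate 1 with 30.52 and RNF216 in replicate 2 with 22.73. NEDD4L, a ligase of epithelial sodium channels, hosted the longest member circle, a sense overlapping circle of 75327 bases with 2 reads in *E. coli* replicate 3.

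No member circle carried more than 2 merged peaks, and 5 carried 2, those of TRIM29, KLHL29, RNF150, RNF169 and USP4. The maximum was 10 over the whole table. Of the control calls on members 62.5% reached an end of the circle (61.8% over all calls), and of the *E. coli* calls 53.8% (65.8%).

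By role, peaks were found on all groups except the UBR genes, CUL3 and BIRC6. RING and TRIM genes had 16 control and 8 *E. coli* peak calls on 5 genes, and USP genes 14 and 7 on 5 genes. UBE genes had 8 and 5 calls on 2 genes, kelch genes 8 and 5 on 2 genes, and HECT genes 5 and 1 on 4 genes. F-box genes had 5 control calls on 2 genes and none in *E. coli*.

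Other genes of the ubiquitin pathway, taken from a list of 102 that do not carry these prefixes, were counted beside the members. Of these, 32 had a circle, with 113 reads in control, 13 with *S. aureus* and 24 with *E. coli*. Peaks were called on 10 of them in control, 0 with *S. aureus* and 5 with *E. coli*. All circles together had 5300, 1147 and 2790 junction reads and 3727, 84 and 2155 peak calls in the same order. The share of all host genes with a peak was not computed, so these counts cannot be set against it. Among the 4 of them that could be tested (BTBD7, HUWE1, SAE1 and TRIP12), edgeR put none under an adjusted p of 0.05 in any comparison. By the rule of 2-fold and an unadjusted p of 0.05, BTBD7 was called lower with either bacterium, and without TMM only with *E. coli*. It had 4, 7 and 5 reads in control and none in the 6 bacterial wells. Over all host genes the background by this rule was 19.0% for *S. aureus* and 7.8% for *E. coli* against control. The list was chosen with earlier results of these data known, so this call is not independent evidence. HUWE1, TRIP12, PSMD1 and ZNRF2 had peaks in all control and all *E. coli* wells.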

How the data were processed

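Input and IP libraries of 9 wells were analysed. Per the labels and the methods, the authors used cutadapt 1.9.3 for trimming, STAR 2.5.1b for alignment (build bosTau9), DCC for circRNA detection and edgeR 3.16.5 for normalization. The deposited table holds raw back-splice junction counts per input library, with 9 normalized columns that were not used. The deposited peak tables hold, per IP library, a fold enrichment (ratio of IP to input), a false discovery rate in percent and a score, and the caller is not given in the sources used here. The deposited predicted lengths were used as given. Positions are counted from 1, and chromosome numbers were assigned through the host symbols in the RefSeq gene table of another assembly.

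Members and lists were chosen with earlier results of these data known. The test of junction reads was edgeR's quasi-likelihood test (version 4.0.16, R 4.3.3) with TMM, all 9 libraries in 1 fit, total junction reads as library size and a filter of 2 reads in 3 libraries, with Benjamini-Hochberg adjustment over all features tested. On counts simulated in proportion to total junction reads, this fit with TMM gave *S. aureus* values that were too low. Scaling by total junction reads was built into that simulation, so it cannot show which scaling suits the real libraries. Values with and without TMM are therefore both given. Fold enrichment was compared by exact permutation tests (scipy 1.17.1). Alternatives were DESeq2 1.42.0, other scalings, filters and peak thresholds, a replicate block and leaving out each well in turn. Named were the members tested as circles, the 15 host genes with most reads, the 12 control and 6 *E. coli* peaks with the largest mean among those in all 3 wells, peaks in all wells of 1 of these groups and none of the other, the 5 circles with most peaks, members read in every well of a group, and HERC1 and NEDD4L. UBE2R2, FBXL5, USP46, USP9X, RNF4, USP18, RNF216, HERC3, HERC5, BTBD7, PSMD1 and ZNRF2 were chosen after their values were seen. Clean read numbers from the study's supplement served only as an alternative library size.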

Additional observations from a re-analysis of the deposited data

How the results depend on the processing

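Counts of called members were 0 or 1 in the fits as planned and moved by at most 1 under the alternatives. For *S. aureus* against control, the host gene count of 1 (BIRC6) became 0 with total junction reads without TMM and with the DESeq2 Wald test, and 2 with clean input reads as library size and with no filter beyond 1 read in any library. Clean input reads gave 1 in place of 0 for the circRNA test of *E. coli* against control and for the host gene test of *E. coli* against *S. aureus*. No filter gave 1 for the circRNA tests of *S. aureus* and of *E. coli* against control, and a filter of 1 read in 3 libraries gave 1 for the host gene test of *E. coli* against *S. aureus*. Leaving out each well gave 0 to 1 calls for the host gene tests of *S. aureus* against control and of *E. coli* against *S. aureus*. The log2 fold change for *S. aureus* against control turned from negative to 0.15 for USP3 and 0.97 for USP13 without TMM, and USP13 ranged from -1.11 to 3.79 when 1 well was left out, and from -4.35 to 2.75 for *E. coli* against control, both positive only without control replicate 1.

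With the replicate block, which puts the well number into the design, the count of called host genes for *S. aureus* against control stayed at 1 and the other counts at 0, while USP13 turned to 0.68. Over all host genes, calls for *S. aureus* against control, *E. coli* against control and *E. coli* against *S. aureus* went from 39, 16 and 22 to 26, 8 and 11, and over all circRNAs from 13, 7 and 12 to 9, 2 and 4. Deviations of same-numbered wells correlated only between -0.188 and 0.126.

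Over all genes, for *S. aureus* against control, the 39 host genes called became 8 without TMM, 9 with DESeq2 and 68 with clean input reads, and the 13 circRNAs became 2, 2 and 26. For *E. coli* against control, the 16 host genes became 3 with DESeq2 and 32 with a filter of 1 read in 3 libraries, and the 7 circRNAs became 4 with DESeq2 size factors, 1 with DESeq2 and 12 with that filter. For *E. coli* against *S. aureus*, the 22 host genes became 14 without TMM, 8 with DESeq2, 46 with clean input reads and 11 with only these groups in the fit, and the 12 circRNAs became 6 without TMM (3 higher, 3 lower, against 10 higher, 2 lower), 5 with DESeq2 and 7 with only these groups. Leaving out 1 well gave 6 to 43, 3 to 17 and 9 to 21 host genes in the same order, lowest without *S. aureus* replicate 1, control replicate 3 and *E. coli* replicate 1.

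Host genes with a junction read numbered 57 in control, 16 with *S. aureus* and 32 with *E. coli*. Asking for 2 reads in 1 library left 35, 6 and 20, and asking for 2 of 3 wells left 11, 3 and 7. Without 1 well they ranged from 37 to 46 in control (37 without control replicate 3) and from 10 to 13 with *S. aureus* (10 without *S. aureus* replicate 1). Host genes with a peak numbered 18 in control and 11 with *E. coli*. Above the median fold enrichment of all control peaks 11 remained in control, at a false discovery rate of at most 5% 0 did. In *E. coli* 6 had a peak in 2 wells, 5 in all 3, and 7 on exonic circles. Merged peaks, 25 in control and 13 in *E. coli*, fell in control to 13 (all 3 wells), 11 (above that median) and 0 (false discovery rate), and in *E. coli* to 7 (2 wells), 6 (all 3 wells) and 8 (exonic). Of the 5 peaks of all 6 wells, the 2 higher in *E. coli* became 0 after division by the library median, and 2 to 4 when 1 well was left out, 4 without control replicate 1. Control peaks absent from *E. coli* numbered 3, and 3 to 5 when 1 well was left out, with 5 without control replicate 1, control replicate 2 or *E. coli* replicate 2. A paired test of fold enrichment was not run, since with 3 pairs it cannot go below 0.25.

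The small number of junction reads is the limit in the *S. aureus* group, where 0 reads allow a share of up to 0.262% if reads are independent.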
